A study of Mus musculus with 10 samples.

Results

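Stard4 and Pctp encode small proteins built around a START domain, a protein pocket that holds 1 lipid molecule. All probe sets whose platform annotation gives exactly the symbol Stard4 or Pctp were taken, which gave 3 of 12411 probe sets tested: 2 for Stard4 (116072_at, the brighter, and 113753_at, the dimmer) and 1 for Pctp (109029_at). Both genes were picked for description with their values on these arrays known. Stard4 was chosen by its log2 values in the comparisons with WT, being higher in both SREBP transgenic lines and lower after SCAP loss. Pctp was chosen by its log2 values in the transgenic lines, being higher in the SREBP-1a than in the SREBP-2 line. Those differences are therefore given as descriptions, with errors but no test. For Stard4 and Pctp, tests are given only for differences that did not enter the choice.

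Values come from mouse liver RNA on Affymetrix MG_U74Bv2 arrays, 10 arrays in 5 groups. The TgSREBP-1a and TgSREBP-2 groups were male mice transgenic for human SREBP-1a or SREBP-2 in the active nuclear form, and their WT controls were wild type males. All 3 of these groups were 12 to 16 weeks old and had eaten for 2 weeks a diet high in protein and low in carbohydrate, which the labels say was chosen to drive the transgenes, so the controls carry the diet too. The Scap-/- mice and their own WT controls were chow-fed males of 10 to 12 weeks. Both of these groups had 4 injections of polyinosinic-polycytidylic acid, which switches on the Cre recombinase, and livers were taken 14 days after the last, so these controls carry the injections too. The labels name neither the promoter of the transgenes nor that of Cre. In each group RNA of 5 livers was mixed into 1 pool and hybridised to 2 arrays, so the spread between arrays is error of hybridisation, and possibly of labelling, which the labels do not separate, and says nothing about differences between mice. The wild type pools differ in age, diet and injections, which cannot be told apart when they are compared.

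SREBPs are membrane-bound transcription factors that SCAP carries to the Golgi, where they are cut and released to the nucleus. SREBP-2 acts mainly on genes of cholesterol synthesis and uptake, SREBP-1c on fatty acid synthesis, and SREBP-1a on both. The STARD4 protein moves cholesterol between cell membranes, and its gene is known as a sterol-regulated one in mouse liver. The Pctp product, phosphatidylcholine transfer protein, carries phosphatidylcholine through the cytosol, binds the thioesterase THEM2 (gene Acot13) and has been linked in mice to hepatic lipid and glucose metabolism and to PPAR alpha, the transcription factor of fatty acid oxidation.

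SREBPs bind short sites near gene starts, so the Pctp promoter is shown as a reference for its response. The window runs from 250 bases before to 50 bases after the start in RefSeq (GRCm38.p6, chr11:90002845-90003144, minus strand), and the table used held it for 1 of the 2 genes, Pctp. Capitals mark the motif matches found.
Pctp promoter: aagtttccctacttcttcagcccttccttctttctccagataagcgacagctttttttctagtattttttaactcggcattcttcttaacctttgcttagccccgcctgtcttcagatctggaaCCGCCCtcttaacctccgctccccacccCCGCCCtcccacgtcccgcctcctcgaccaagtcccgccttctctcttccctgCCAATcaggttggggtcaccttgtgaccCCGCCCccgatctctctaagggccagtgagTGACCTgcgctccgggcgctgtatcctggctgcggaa
Each motif was searched on both strands, and its share is over 32851 promoter windows of this length. The window held 3 GC boxes (GGGCGG, all on the opposite strand), starting at -126, -98 and -17 from the gene start, a motif present in 35.7% of windows. It held 1 CCAAT box (CCAAT) at -45, present in 37.4%, and 1 copy of the core nuclear receptor motif (AGGTCA, opposite strand) at 13, present in 16.3%. The letters of the sterol regulatory element TCACNCCAC, present in 1.24% of windows, were not found in it, nor was the E-box CACGTG, present in 7.15%. No matches overlapped. A match of letters is a description of the window and does not show binding, and a missing match does not show that binding is absent. The sterol regulatory element letters were also missing from the windows of Cyp51, Pmvk, Aacs, Hsd17b7 and Pank3, genes described below that rose in both lines. Among genes with a profile like that of Pctp, Spag9 had them in 1 of 2 windows, and Rdh9 and Slc44a1 in none. No window was held for Man1a2, Atp10d and Tmem88, also like Pctp, or for Mpv17l, which is like Stard4, so these were not searched.

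Liver markers were present and pancreas markers were too. The hepatocyte genes Apoa1, Hnf4a and C8a lay at percentiles 100, 99.8 and 96.6 of mean level. The targeted gene Scap, on its brighter probe set, read 7.94 and 7.75 in Scap-/- against 9.24 and 8.89 in WT of the Scap study on the log2 scale, a fall of 1.22 ± 0.18 (SE; limma adjusted p = 0.018), which was lost without either Scap-/- array or without the first WT array. With only the 4 arrays compared, this fall did not pass the test either. The dimmer Scap probe set, near the bottom of the scale, did not separate these groups (3.56 and 3.63 against 3.37 and 3.58). Array medians lay between 5.63 and 5.66, and duplicate arrays correlated with r between 0.9871 and 0.9944 across probe sets. The summed level of 3 pancreatic acinar genes (Cpb1, Cela3b, Ctrc) was 7.82 to 7.84 in TgSREBP-1a and 11.65 to 12.05 in TgSREBP-2, against 10.94 to 11.37 in their WT. It was 8.02 to 8.07 in Scap-/-, against 9.83 to 10.12 in WT of the Scap study.

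Stard4 was well measured, and its level moved over a wide range. On the brighter probe set the log2 expression values were 9.51 and 9.21 in TgSREBP-1a livers and 9.88 and 9.76 in TgSREBP-2, against 7.86 and 7.51 in their WT. They were 7.05 and 6.74 in Scap-/-, against 8.97 and 8.36 in WT of the Scap study. No neighbouring groups overlapped in the order TgSREBP-2, TgSREBP-1a, WT of the Scap study, WT of the transgenic study, Scap-/-. Lack of overlap between 2 groups says little by itself. It was seen in 34.4% of all probe sets between Scap-/- and WT and in 46.1% between the lines. The TgSREBP-2 arrays placed Stard4 at percentile 99.5 of all probe sets, the Scap-/- arrays at 79.7 and 74.7. The span over the 10 arrays was 3.14, the 29th widest of the 12411, where the median span was 0.43.

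**Figure D1:**
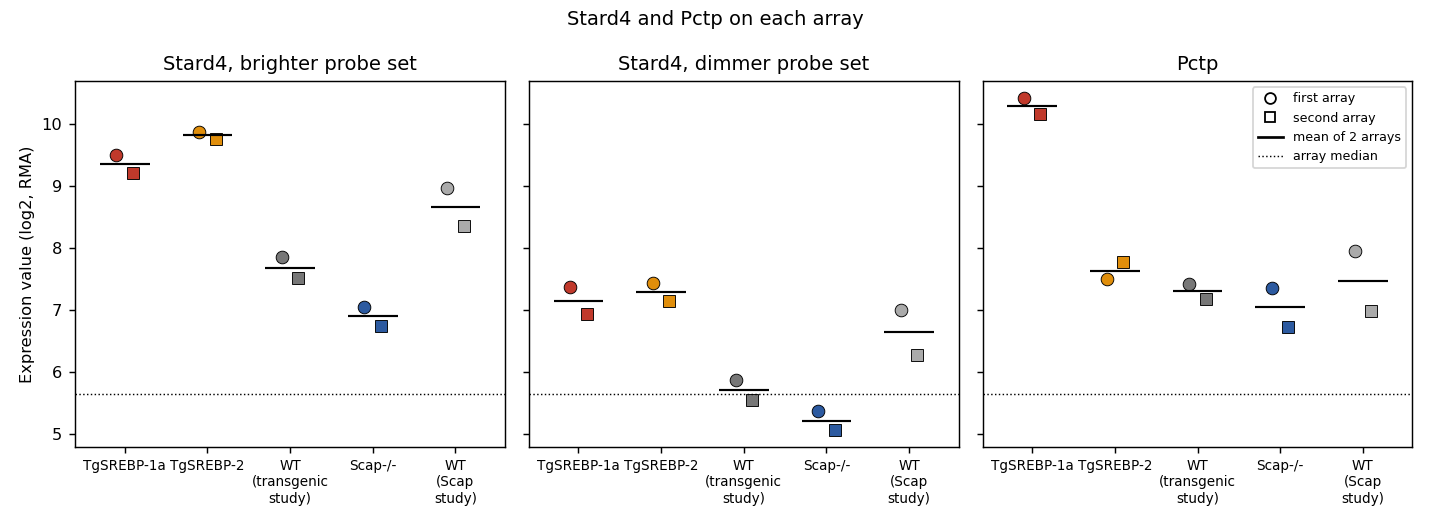
Expression value (log2, RMA) of both Stard4 probe sets and of Pctp on each of the 10 arrays, with the first array of a group as a circle, the second as a square, the mean as a bar and the array median as a dotted line. Stard4 stands high in both transgenic lines and low in Scap-/-, while Pctp stands apart in TgSREBP-1a alone, at 10.43 and 10.16.

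As fold changes, Stard4 on the brighter probe set was 3.21-fold higher in TgSREBP-1a than in WT (log2 difference 1.68 ± 0.20, SE; 95% interval 1.24 to 2.13). In TgSREBP-2 it was 4.4-fold higher than in WT (2.14 ± 0.20; 1.69 to 2.58). In Scap-/- it was 3.41-fold lower than in WT (-1.77 ± 0.20; -2.21 to -1.33). The gene thus stood above WT in each line and below WT after SCAP loss. These differences ranked 29th among the increases in TgSREBP-1a, 6th among those in TgSREBP-2 and 10th among the decreases in Scap-/-. They are the values for which the gene was chosen. Called means here that a probe set changed 1.5-fold or more with an adjusted p below 0.05. Both Stard4 probe sets were called in all 3 comparisons, where 1.36% of probe sets were called higher in TgSREBP-1a, 0.338% higher in TgSREBP-2 and 0.258% lower in Scap-/-. Since that choice used these comparisons, nothing is read from the counts.

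The dimmer Stard4 probe set had the same order of group means at lower levels. Its log2 values were 7.37 and 6.93 in TgSREBP-1a livers and 7.44 and 7.15 in TgSREBP-2, against 5.87 and 5.55 in WT. They were 5.36 and 5.06 in Scap-/-, against 7.0 and 6.28 in WT of the Scap study. Here the transgenic lines overlapped each other, and TgSREBP-1a overlapped WT of the Scap study. The log2 differences were 1.44 ± 0.23 in TgSREBP-1a, 1.58 ± 0.23 in TgSREBP-2 and -1.43 ± 0.23 in Scap-/- (SE), each smaller in size than on the brighter probe set. The distance between the probe sets on an array (brighter minus dimmer) was 2.14 and 2.29 in TgSREBP-1a livers and 2.44 and 2.61 in TgSREBP-2, against 1.99 and 1.95 in WT, and 1.68 and 1.69 in Scap-/-, against 1.96 and 2.08 in WT. It was widest where the gene was highest and narrowest where it was lowest. Over the 10 arrays the probe sets had r = 0.989, a description of values that share their arrays and groups.

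Leaving out single arrays of the groups compared moved the differences on the brighter probe set between 1.51 and 1.86 in TgSREBP-1a, between 1.96 and 2.31 in TgSREBP-2 and between -2.07 and -1.47 in Scap-/-. The calls, from which nothing is read, rested in part on single arrays. In Scap-/- that of the brighter probe set was lost without the second Scap-/- array, and that of the dimmer one in 9 of 10 fits that left out 1 array. The dimmer one also lost its call in TgSREBP-1a without the second WT or the first TgSREBP-1a array, and in TgSREBP-2 without either WT array or the first TgSREBP-2 array. With only the 4 arrays compared, neither Stard4 probe set was called in Scap-/-.

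The difference between the transgenic lines was not what Stard4 was chosen for, although the levels in both lines were part of the choice, which limits the test. The brighter probe set was 0.46 ± 0.20 lower on the log2 scale in TgSREBP-1a than in TgSREBP-2 (log2 difference -0.46, 95% interval -0.90 to -0.01), with no overlap of arrays. The difference did not pass the test (limma, unadjusted p = 0.046, adjusted p = 0.33), and 46.1% of all probe sets had no overlap in this comparison. On the dimmer probe set the difference was -0.15 ± 0.23 (-0.67 to 0.38, adjusted p = 0.83) and the arrays overlapped. A difference in Stard4 between the lines was not resolved with 2 arrays per line. In this comparison 0.677% of probe sets were called lower and 1.18% higher.

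The wild type pools stood apart in Stard4. WT of the transgenic study read 7.68 ± 0.25 and WT of the Scap study 8.67 ± 0.43 on the brighter probe set (mean ± SD, n = 2 arrays), and 5.71 ± 0.22 against 6.64 ± 0.51 on the dimmer one. The log2 differences were -0.98 ± 0.20 (95% interval -1.43 to -0.54) and -0.93 ± 0.23 (-1.46 to -0.41), a level 1.98-fold lower on the brighter probe set in WT of the transgenic study. These wild type values enter the comparisons for which the gene was chosen, so no test is given. The gap between duplicate arrays of WT of the Scap study, 0.60 on the brighter and 0.72 on the dimmer probe set, was wider than in 97.3% and 98.7% of all probe sets.

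Pctp had a different profile. Its log2 values were 10.43 and 10.16 in TgSREBP-1a livers and 7.50 and 7.77 in TgSREBP-2, against 7.42 and 7.18 in their WT. They were 7.35 and 6.73 in Scap-/-, against 7.96 and 6.98 in WT of the Scap study. The TgSREBP-1a arrays were above all others and placed Pctp at percentiles 99.8 and 99.7 of all probe sets, and the other 8 arrays placed it between 74.5 and 92.1. The group means below TgSREBP-1a ran TgSREBP-2, WT of the Scap study, WT of the transgenic study, Scap-/-, and each overlapped its neighbour in that order.

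In TgSREBP-1a, Pctp was 7.96-fold higher than in WT (log2 difference 2.99 ± 0.28, SE; 95% interval 2.36 to 3.62), the 3rd largest increase on the array. Between the lines, the level in TgSREBP-1a was 6.32-fold that in TgSREBP-2 (2.66 ± 0.28; 2.03 to 3.29), the 2nd largest. In TgSREBP-2 it was 1.26-fold higher than in WT (0.33 ± 0.28; -0.30 to 0.96), with no overlap of arrays, as had 40% of all probe sets. The TgSREBP-1a and TgSREBP-2 arrays gave the values that chose Pctp and enter each of the 3, so none is tested. The log2 differences from WT stayed between 2.86 and 3.13 in TgSREBP-1a when an array of either group was left out.

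**Figure D2:**
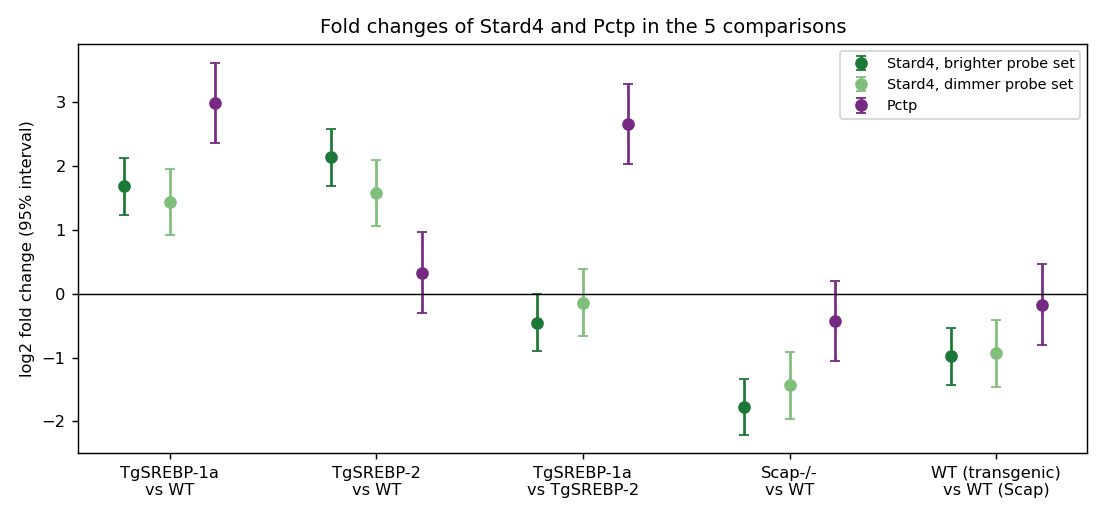
Log2 fold changes of both Stard4 probe sets and of Pctp in the 5 comparisons, with 95% intervals from the limma fit to all 10 arrays; the horizontal line marks no difference. Both Stard4 probe sets lie above the line in TgSREBP-1a and TgSREBP-2 and below it in Scap-/- and between the wild types, and Pctp lies highest in TgSREBP-1a, against WT (2.99) and against TgSREBP-2 (2.66).

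Cell-type markers moved with the TgSREBP-1a comparison in which Pctp was highest. Against WT, the acinar genes Cpb1 and Cela3b fell in TgSREBP-1a (log2 differences -4.67 ± 0.21 and -3.84 ± 0.16; limma adjusted p = 1.1e-06 and 8.7e-07) and Ctrc, the third of the 3 measured, did not pass the test (-0.22 ± 0.10, adjusted p = 0.51). Cd163, a macrophage receptor and 1 of 2 macrophage markers measured, rose by 0.91 ± 0.15 (adjusted p = 0.008), and Lyve1, a receptor of sinusoidal endothelium and 1 of 5 endothelial markers, by 0.64 ± 0.10 (adjusted p = 0.0059). The summed macrophage markers read 6.01 to 6.11 in TgSREBP-1a, against 5.34 to 5.37 in WT, and the endothelial ones 9.90 to 9.96, against 9.71 to 9.80. Both sums were higher on each TgSREBP-1a array than on each WT array, and 42.4% of all probe sets had no overlap in this comparison. Each sum is of unlogged values, so its brightest gene weighs most. The macrophage genes Cd163 and Timd4 are dim (percentiles 33.5 and 7.47 of mean level), as is Lyve1 (32.2). C8a, a complement gene of hepatocytes and 1 of 3 hepatocyte markers measured, fell by 2.60 ± 0.24 (adjusted p = 0.00018). The summed hepatocyte markers read 13.06 to 13.18, against 13.52 to 13.67. The other 2 hepatocyte, 1 macrophage and 4 endothelial markers were not called against WT. The median log2 differences of these lists were -0.42, 0.49 and 0.10. In TgSREBP-1a against TgSREBP-2, Cpb1 (-5.3 ± 0.21), Cela3b (-4.47 ± 0.16), Ctrc (-1.72 ± 0.10), C8a (-2.58 ± 0.24) and the erythroid marker Tfrc (-1.38 ± 0.23) were lower. Cd163 (1.21 ± 0.15), Lyve1 (0.82 ± 0.10) and the endothelial Ptprb (1.02 ± 0.18) were higher, all with limma adjusted p of at most 0.016. Between the lines, 2 hepatocyte, 1 macrophage and 3 endothelial markers were not called. In pooled liver RNA, fewer cells of a type and less RNA per cell cannot be told apart. The part of these markers in the Pctp and Stard4 differences was not tested. Against WT, the calls of Cd163 and Lyve1 were lost without either WT array or without the first TgSREBP-1a array. That of Cd163 was also lost without the second TgSREBP-1a array. Between the lines, the calls of Ptprb and Tfrc were each lost in 3 fits that left out 1 array.

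Other markers moved with the other groups. In TgSREBP-2, Ctrc rose by 1.51 ± 0.10 (adjusted p = 8.9e-05), and Tfrc, the transferrin receptor used as an erythroid marker, by 1.5 ± 0.23 (adjusted p = 0.016). The summed hepatocyte markers read 12.65 to 13.56 in TgSREBP-2, against 13.52 to 13.67 in WT, and overlapped. The Tfrc call was lost without any 1 of the 4 arrays compared. In Scap-/-, Cpb1 fell by 3.21 ± 0.21 (adjusted p = 0.00014) and Cela3b fell by 1.89 ± 0.16 (adjusted p = 0.00097). The summed hepatocyte markers read 13.27 to 13.49 in Scap-/-, against 13.51 to 13.64 in WT of the Scap study. Their part in the Stard4 values was not tested.

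The comparison for which Pctp was chosen holds no array of the Scap study, so Pctp was tested for a change with SCAP loss. Its values were known when it was picked, and the fit shares its error with the transgenic arrays, which limits the test. Pctp averaged 7.04 ± 0.44 in Scap-/- and 7.47 ± 0.69 in WT of the Scap study (SD, n = 2 arrays each), and the arrays overlapped. The log2 difference was -0.43 ± 0.28 (SE; 95% interval -1.06 to 0.20) and did not pass the test (limma, unadjusted p = 0.16, adjusted p = 0.70), while 0.258% of probe sets were called lower and 0.0161% higher. Without the first WT array of the Scap study, the higher of the pair, the sign turned (0.06), and without the second it was -0.92 (adjusted p = 0.11). The duplicate arrays themselves were far apart, by 0.97 in WT of the Scap study and by 0.62 in Scap-/-, wider gaps than in 99.6% and 98.2% of all probe sets, where the median gap was 0.13. A change of Pctp after SCAP loss was not detectable at this precision, and a fall of up to 1.06 on the log2 scale lies within the interval.

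The wild type arrays did not enter the comparison that chose Pctp, though their values were known. The test did not separate the wild type pools. Pctp averaged 7.30 ± 0.16 in WT of the transgenic study and 7.47 ± 0.69 in WT of the Scap study (SD, n = 2 arrays each), a log2 difference of -0.17 ± 0.28 (95% interval -0.80 to 0.46; limma adjusted p = 0.89) with overlapping arrays. In this comparison 0.153% of probe sets were called higher and 0.355% lower. The sign turned without the first WT array of the Scap study (0.32).

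Over the 10 arrays Stard4 (brighter probe set) and Pctp had a Pearson correlation of 0.563 and a Spearman correlation of 0.721. These are descriptions over arrays that share 5 pools. In both genes, the first array of a group tended to read higher than the second, in 5 of 5 groups for each Stard4 probe set and in 4 of 5 for Pctp, and 7.4% of all probe sets did so in all 5.

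Of the START family, 10 of 16 listed genes were measured, and the other 8 genes had 13 probe sets. By limma, 0 of these 13 probe sets were called in any of the 5 comparisons. Calls were most frequent in TgSREBP-1a against WT, with 1.36% of all probe sets higher and 0.814% lower. So few calls over all probe sets mean that 0 of 13 says little about the family. At an unadjusted p under 0.05 there were 2 in TgSREBP-1a (Cert1, Stard5), 1 in TgSREBP-2 (Stard6), 0 in Scap-/-, 0 between the lines and 3 between the wild types (both of Stard5 and Dlc1). The share of all probe sets at this cut was not taken, so nothing is read from such counts, here or for the lists below. Over the 10 genes, the median log2 difference was 0.16 in TgSREBP-1a, 0.06 in TgSREBP-2 and -0.19 in Scap-/-, beside -0.02, -0.02 and 0.02 over all probe sets. These medians hold Stard4 and Pctp, which were chosen for their differences. Over the 13 probe sets of the other 8 genes the medians were 0.07, 0.06 and -0.08.

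Stard5, the close relative of Stard4 that also binds sterols, had the largest differences among the other 8 genes in the comparisons with WT, and both of its probe sets are bright (percentiles 98.8 and 95.3). Its log2 differences were 0.37 ± 0.16 and 0.41 ± 0.20 in TgSREBP-1a, 0.13 ± 0.16 and 0.36 ± 0.20 in TgSREBP-2, and -0.29 ± 0.16 and -0.40 ± 0.20 in Scap-/-. None passed the test (adjusted p between 0.47 and 0.89). Cert1, the ceramide carrier between endoplasmic reticulum and Golgi, had 0.34 ± 0.15 in TgSREBP-1a on its brightest probe set (adjusted p = 0.48), and its other 3 probe sets between 0.03 and 0.10. Acot12, a liver thioesterase with a START domain, had 0.21 ± 0.17 in TgSREBP-1a, 0.07 ± 0.17 in TgSREBP-2 and -0.34 ± 0.17 in Scap-/-. Star, which delivers cholesterol to mitochondria in steroid-making cells, is low in liver (4.81 to 5.11 over the arrays) and had -0.01 ± 0.10, 0.06 ± 0.10 and -0.10 ± 0.10. The remaining 4 genes, Stard6, Stard8, Acot11 and Dlc1, lay between -0.25 and 0.17 in these comparisons.

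**Figure D3:**
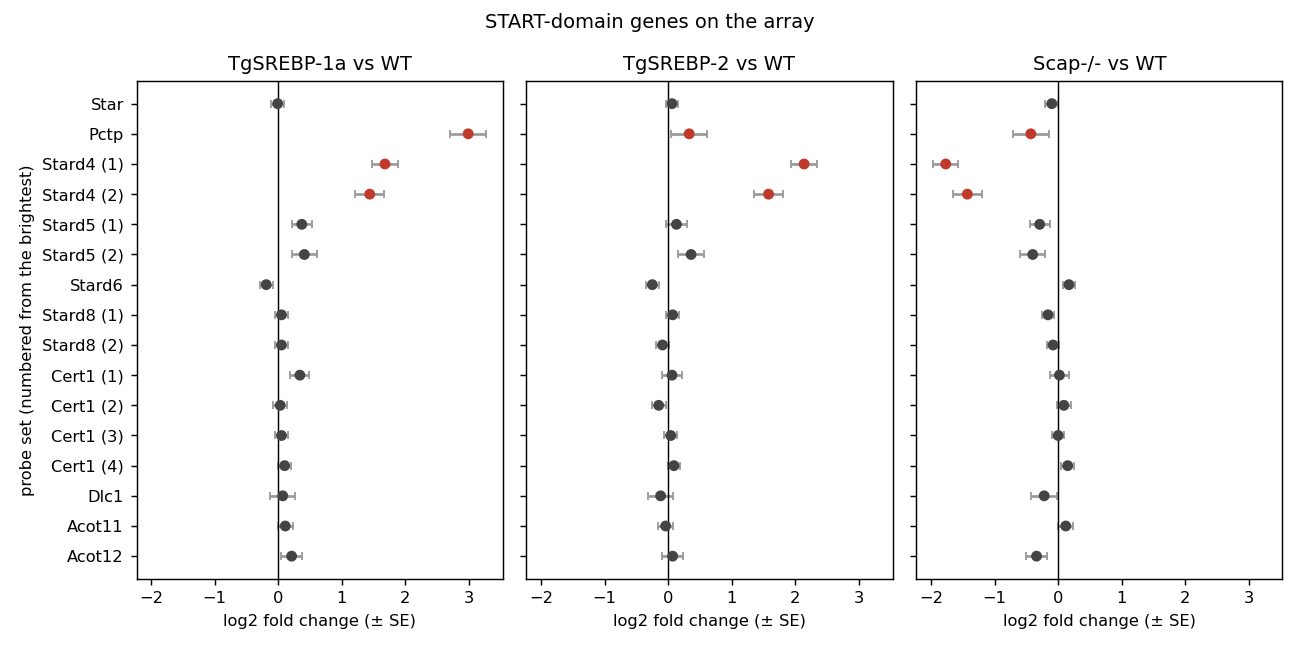
Log2 fold changes (± SE, n = 2 arrays per group) of the 16 probe sets of START-domain genes in TgSREBP-1a, TgSREBP-2 and Scap-/-, each against its WT, with several probe sets of a gene numbered from the brightest and Stard4 and Pctp in red. The other probe sets lie between -0.40 and 0.41.

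Genes of cholesterol synthesis and LDL uptake give the setting of Stard4. Of 13 measured (30 listed), 8 rose and 0 fell in TgSREBP-1a, 9 rose and 0 fell in TgSREBP-2, and 8 fell and 0 rose in Scap-/-, the targeted Scap among them. Over all probe sets, 1.36% were called higher in TgSREBP-1a, 0.338% higher in TgSREBP-2 and 0.258% lower in Scap-/-. The list was chosen with earlier results of these data known, so its counts are descriptions. The median log2 differences of the list were 1.05, 1.44 and -1.17, beside -0.02, -0.02 and 0.02 over all probe sets. Cyp51, the lanosterol demethylase, read 7.35 and 7.08 in TgSREBP-1a livers and 7.87 and 7.77 in TgSREBP-2, against 5.28 and 4.91 in WT, and 4.88 and 4.64 in Scap-/-, against 6.43 and 6.21 in WT. Between the lines, Idi1, the isomerase of isopentenyl diphosphate, was lower in TgSREBP-1a (-1.18 ± 0.16, adjusted p = 0.0027) and Mylip, which marks the LDL receptor for degradation, higher (0.91 ± 0.15, adjusted p = 0.01). Of these calls, 6 of 8, 7 of 9, 3 of 8 and 0 of 2 held without each array in turn.

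The wild type pools differed in this list in the direction in which they differed in Stard4. Over all probe sets, 0.355% were called lower and 0.153% higher in WT of the transgenic study than in WT of the Scap study. Of the 13 list genes, 6 were called lower and 0 higher. They were Idi1 (-1.83 ± 0.16), Pmvk (-1.66 ± 0.25), Sc5d (-1.60 ± 0.17), Insig1 (-1.31 ± 0.24), Cyp51 (-1.23 ± 0.15) and Nsdhl (-0.88 ± 0.13), with limma adjusted p between 0.00084 and 0.043. The calls of Idi1 and Sc5d held without each array in turn. The list median was -0.88, beside 0.02 over all probe sets. The acinar marker Cela3b differed too, higher in WT of the transgenic study (1.61 ± 0.16, adjusted p = 0.0031), and its part in these differences was not tested.

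By Pearson r over the 10 arrays, the genes most like Stard4 were Cyp51 (0.985), Pmvk, which phosphorylates phosphomevalonate (0.979), Mpv17l (0.975), Aacs, acetoacetyl-CoA synthetase (0.972), Hsd17b7, a ketosteroid reductase of cholesterol synthesis (0.97) and Pank3, a pantothenate kinase of coenzyme A synthesis (0.96). The value was over 0.9 for 20 of 10579 probe sets (0.189%). Their log2 differences in Scap-/- ran from -2.39 ± 0.32 for Hsd17b7 to -0.76 ± 0.17 for Pank3. Hsd17b7 had 1.64 ± 0.32 in TgSREBP-1a and 3.02 ± 0.32 in TgSREBP-2, the widest distance between the lines among the 6. Dim probe sets of Pmvk and Pank3 disagreed with those named, with -0.09 in TgSREBP-1a for Pmvk, where the one named had 2.98 ± 0.25, and -0.03 for Pank3, where the one named had 1.03 ± 0.17. The brightest Pank3 probe set had 0.76 and was called too.

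The genes most like Pctp were Rdh9, of the retinol dehydrogenase family (0.99), Man1a2, a Golgi mannosidase (0.979), Spag9, a scaffold of JNK signalling (0.978), Atp10d, a lipid flippase (0.977), Slc44a1, a choline transporter (0.974) and Tmem88 (0.973). A value over 0.9 was held by 113 of 10580 probe sets (1.07%). Rdh9 read 10.22 and 9.77 in TgSREBP-1a livers and 7.58 and 7.69 in TgSREBP-2, against 7.61 and 7.35 in WT, a log2 difference from WT of 2.51 ± 0.23. Relatives of Rdh9 are close in sequence, so its probe sets may read more than 1 gene. Slc44a1 read 6.63 and 6.37 in TgSREBP-1a livers and 5.15 and 5.25 in TgSREBP-2, against 5.21 and 5.06 in WT (1.36 ± 0.12), but its brighter probe set differed by 0.13 ± 0.10. Spag9 and Atp10d had 1.45 ± 0.26 and 1.38 ± 0.18. Man1a2 and Tmem88 had the shape at a small size (0.41 and 0.23 in TgSREBP-1a) and were not called. The other Man1a2 probe sets had 0.18, 0.41 and -0.19.

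**Figure D4:**
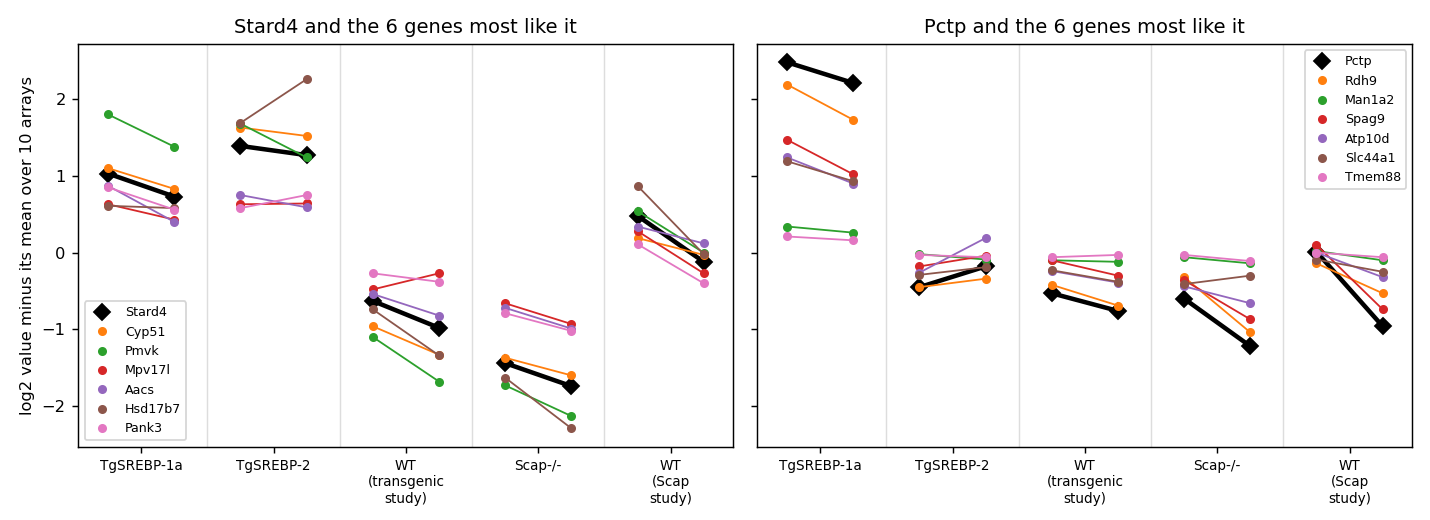
Log2 value minus its mean over the 10 arrays for Stard4 (brighter probe set) and the 6 genes most like it, left, and for Pctp and the 6 most like it, right; both arrays of each group are joined by a line. Genes like Stard4 are high in both lines and low in Scap-/-, and those like Pctp are high in TgSREBP-1a, by amounts from 0.23 (Tmem88) to 2.51 (Rdh9) over WT.

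Among partners of phosphatidylcholine transfer protein and genes tied to PPAR alpha, 8 of 24 listed were measured. In TgSREBP-1a, 2 rose and 2 fell, where 1.36% of all probe sets were called higher and 0.814% lower. Acot2, a mitochondrial acyl-CoA thioesterase, read 10.11 and 9.80 in TgSREBP-1a livers and 8.35 and 8.42 in TgSREBP-2, against 8.25 and 8.34 in WT. It rose by 1.66 ± 0.15 over WT (limma adjusted p = 0.00016), and was 1.57 ± 0.15 above TgSREBP-2 (adjusted p = 0.00044). Its cytosolic paralog Acot1 read 8.12 and 8.07 in TgSREBP-1a livers and 5.63 and 6.16 in TgSREBP-2, against 7.16 and 6.93 in WT, higher by 1.05 ± 0.18 in TgSREBP-1a (adjusted p = 0.0098) and lower by 1.15 ± 0.18 in TgSREBP-2 (adjusted p = 0.019). These paralogs are close in sequence, so their probe sets may share signal.

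Ppara itself fell in TgSREBP-1a. It read 6.27 and 6.20 in TgSREBP-1a livers and 6.91 and 7.16 in TgSREBP-2, against 7.62 and 7.15 in WT, a difference of -1.15 ± 0.19 in TgSREBP-1a (limma adjusted p = 0.0087). Crot, a peroxisomal carnitine acyltransferase, fell by 1.52 ± 0.22 in TgSREBP-1a (adjusted p = 0.0033) and was lower than in TgSREBP-2 (log2 difference -1.46 ± 0.22, adjusted p = 0.0057). In the line where Pctp was highest, these thioesterases were high and Ppara and Crot low. The list was chosen with earlier results of these data known, so its p-values are descriptions. A tie of these genes to Pctp was not tested. In Scap-/- 0 of the 8 were called, and 0 had an unadjusted p under 0.05. In WT of the transgenic study Acot1 was 1.64 ± 0.18 above WT of the Scap study (adjusted p = 0.0038). The list medians were -0.37 in TgSREBP-1a, -0.16 in TgSREBP-2 and -0.14 in Scap-/-. Against WT, the TgSREBP-1a call of Ppara was lost without the first WT or either TgSREBP-1a array and that of Acot1 without the second WT or either TgSREBP-1a array, while those of Acot2 and Crot held. The Acot1 call in TgSREBP-2 was lost in 5 fits that left out 1 array, that between the wild types without the first WT array of the transgenic study, and that of Crot between the lines without either TgSREBP-1a array or the first TgSREBP-2 array.

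Genes that make, remodel or export phosphatidylcholine, the cargo of Pctp, were mostly uncalled. That says little, since 1.36% of all probe sets were called higher and 0.814% lower in TgSREBP-1a. Of 21 measured (44 listed), Lpin1, the phosphatidate phosphatase that supplies diacylglycerol, rose in TgSREBP-1a. It read 9.38 and 9.13 in TgSREBP-1a livers and 7.92 and 7.85 in TgSREBP-2, against 8.14 and 7.76 in WT, a difference of 1.30 ± 0.22 from WT (limma adjusted p = 0.0096) and of 1.37 ± 0.22 from TgSREBP-2 (adjusted p = 0.0085). The call against WT was lost without the second WT or the first TgSREBP-1a array, and that between the lines without the first array of either. None of the 21 was called in TgSREBP-2 or in Scap-/- (limma), where 2 and 1 had an unadjusted p under 0.05. Pnpla7, a lysophospholipase, was lower in WT of the transgenic study than in WT of the Scap study (-1.32 ± 0.24, adjusted p = 0.042), a call lost in 7 fits that left out 1 array. The list medians in TgSREBP-1a, TgSREBP-2 and Scap-/- were 0.05, -0.05 and -0.13. Slc44a1 is on this list too, counted by its brighter probe set, which was not called (0.13 in TgSREBP-1a). Its dimmer probe set, named above for its likeness to Pctp, was called in TgSREBP-1a against WT (1.36 ± 0.12) and against TgSREBP-2 (1.30 ± 0.12).

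Other lipid carriers and sterol handling genes were likewise mostly uncalled, which says little where few of all probe sets were called. Of 22 other intracellular lipid transfer genes (45 listed), Esyt2, a tether of the endoplasmic reticulum to the plasma membrane, rose by 1.01 ± 0.14 in TgSREBP-1a (limma adjusted p = 0.0027) and by 1.09 ± 0.14 in TgSREBP-2 (adjusted p = 0.0054), the TgSREBP-2 call being lost without either WT array. It read 7.52 and 7.42 in TgSREBP-1a livers and 7.47 and 7.63 in TgSREBP-2, against 6.50 and 6.42 in WT. In Scap-/- 0 of the 22 were called, and 2 had an unadjusted p under 0.05. Of 9 genes of sterol esterification, efflux and bile acid synthesis (24 listed), Abcg5, which exports sterols into bile, rose by 1.34 ± 0.15 in TgSREBP-1a (adjusted p = 0.00061) and by 1.61 ± 0.15 in TgSREBP-2 (adjusted p = 0.00081). In Scap-/- 0 of the 9 were called, and 3 had an unadjusted p under 0.05; Abcg5 had -0.60 ± 0.15 (adjusted p = 0.28). Cyp39a1, an oxysterol hydroxylase, was lower in TgSREBP-1a than in TgSREBP-2 (-1.07 ± 0.21, adjusted p = 0.022), lost without either TgSREBP-1a array or the second TgSREBP-2 array. The background of calls lower was 0.814% in TgSREBP-1a and 0.161% in TgSREBP-2.

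The line comparison and the Scap comparison have no array in common. The first chose Pctp, the second was among those that chose Stard4, and the genes most like each were picked for the same shapes, so their places on these axes restate the choice. Stard4 lay at -0.46 and -1.77 (brighter) and at -0.15 and -1.43 (dimmer), and Pctp at 2.66 and -0.43. The genes most like Stard4 had -2.39 to -0.76 in Scap-/-, and those most like Pctp 0.23 to 2.36 between the lines.

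**Figure D5:**
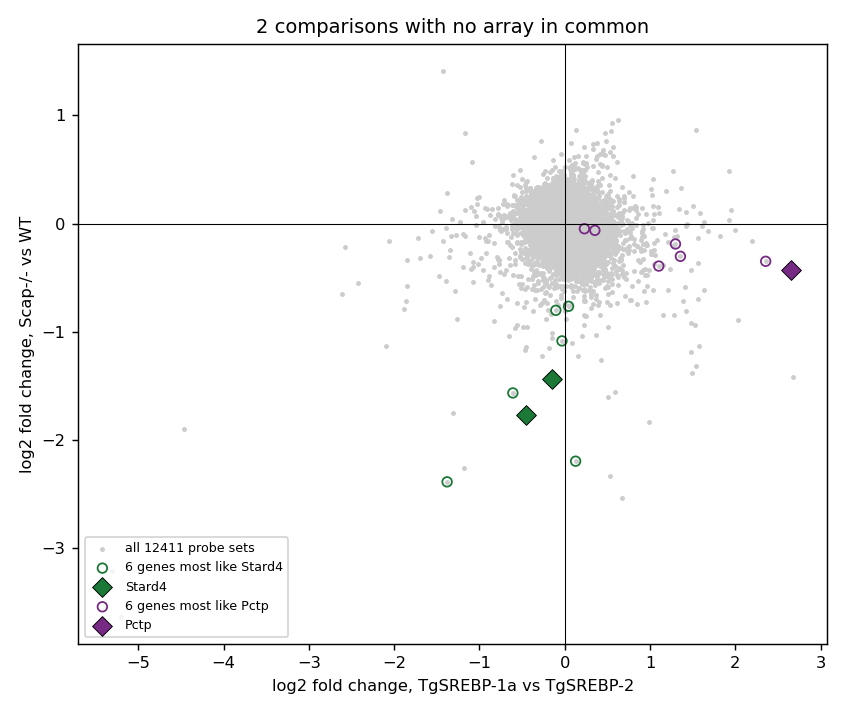
Log2 fold change in Scap-/- against WT (vertical) plotted on that in TgSREBP-1a against TgSREBP-2 (horizontal) for all 12411 probe sets in grey, with Stard4 (green diamonds), Pctp (purple diamond) and the 6 genes most like each (open circles). Stard4 and the genes like it lie low, between -1.38 (Hsd17b7) and 0.13 (Pmvk) on the horizontal axis, and Pctp lies far right at 2.66.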

How the data were processed

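Liver RNA of 5 groups was measured on 10 arrays. The deposited log2 values were made by the authors with RMA, per the submitters' processing notes, which give no version; RMA corrects background, equalises array distributions and summarises probes, which can shrink folds of dim probe sets. Symbols come from the platform annotation (10581 of 12411 probe sets had 1 symbol, 178 several and 1652 none); 66 control probe sets were left out. All 10 arrays entered 1 linear model with a coefficient for each group (limma 3.58.1, lmFit and eBayes, R 4.3.3), tested on simulated data. P-values are two-sided and were adjusted by Benjamini-Hochberg over 12411 probe sets. Errors are standard errors unless named SD. Each gene of a pathway or marker list is represented by its brightest probe set, and each of the genes most like Stard4 or Pctp by its most correlated one. The number of arrays limits the precision (median standard error 0.115).

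The members and lists were chosen with earlier results of these data known. The adjusted p-values of genes on the lists are therefore descriptions. Named were all probe sets of both genes, the 6 genes most correlated with each, the START family, up to 4 called genes per other list and comparison, called markers, and Scap. Lists of stellate, cholangiocyte and lymphocyte markers (2 genes each) had no call and summed levels of 5.68 to 6.22, 5.98 to 6.45 and 4.40 to 4.94. Same-numbered arrays were not paired in the main fit. Their deviations from group means correlated between -0.167 and 0.598, which does not decide whether they share an effect of array number. Such an effect was not tested, and the fit with the array number as a block is given below. Alternatives left out each array, added the array number as a block, used only the 4 arrays compared, another variance model, median centring, the brighter probe sets, or the mean of both Stard4 probe sets.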

Additional observations from a re-analysis of the deposited data

How the results depend on the processing

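The differences for which Stard4 and Pctp were chosen kept their sign in every alternative run, which describes them and is no support. The mean of both Stard4 probe sets gave 1.86 in TgSREBP-2 against WT, below the 2.14 of the brighter one. Leaving out single arrays gave Pctp differences from -0.92 to 0.06 in Scap-/- against WT and from -0.66 to 0.32 between WT of the transgenic study and WT of the Scap study; neither passed the test in any of them. For Stard4 the ranges were 1.51 to 1.86 in TgSREBP-1a, 1.96 to 2.31 in TgSREBP-2, -2.07 to -1.47 in Scap-/-, -1.29 to -0.68 between the wild types and -0.60 to -0.31 between the lines (adjusted p 0.18 to 0.90).

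With the array number as a replicate block, Stard4 differed by 1.68, 2.14 and -1.77 from WT with a smaller standard error (0.11), and by -0.46 between the lines (adjusted p = 0.054). The Stard4 difference between the wild types, -0.98 in both fits, would be called with the block or without the second WT array of the Scap study, but not in the full fit; its values entered the choice. The block raised the called probe sets to 101 in TgSREBP-2 (62 without), 91 in Scap-/- (34) and 145 between the wild types (63). Leaving out single arrays gave as few as 142 calls in TgSREBP-1a (270 in the full fit), 25 to 124 in TgSREBP-2, 10 to 68 in Scap-/-, 87 to 384 between the lines (231) and 14 to 120 between the wild types. With only the 4 arrays compared, Scap-/- had 5 calls and the wild types 13.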
